A study of Mus musculus with 8 samples.

Results

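Endothelial cells line blood vessels, and a small set of surface proteins marks them: 10 such genes were followed here in cultured mouse brain cells. The genes were Eng (endoglin), Cdh5 (VE-cadherin), Flt1 (VEGF receptor FLT1), Kdr (VEGF receptor KDR), Tek (angiopoietin receptor TIE2), Tie1, Pecam1, Cldn5 (claudin-5), Cd93 and Heg1. They were chosen by name and matched by symbol to their mouse Ensembl identifiers. All 10 are listed in the neural stem cell (NSC) table of 47729 genes and in the astrocyte table of 40562 genes, 10 of the 47859 genes that either table holds. Only 3 of them (Flt1, Cd93 and Heg1) had enough reads to be tested in NSCs, and 8 had at least 10 reads in an astrocyte library (the exceptions were Tie1 and Cldn5).

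The RNA came from cultures of wild-type (WT) and S89G-DMP1 knock-in mice, both labelled C57BL/6 and 10 weeks of age, while the study's methods give 3 months for the mice behind the astrocyte cultures. In S89G-DMP1 mice a serine of dentin matrix protein 1 that carries a sugar chain was replaced by glycine through homologous recombination in embryonic stem cells. The methods describe homozygous mutants bred from heterozygous littermates and WT C57BL/6 mice as controls, and the labels do not give the zygosity of each library. Astrocytes were taken from cortex of both sexes by papain digestion, passed through cell strainers (a step at which the methods speak of vessels), grown in DMEM with 10% serum and identified by GFAP staining. They gave 1 library per genotype (13016924 reads on genes for S89G-DMP1 and 14008670 for WT), so no astrocyte difference has a replicate check. NSCs were grown as serum-free neurospheres from the subventricular zone and gave 3 libraries per genotype, numbered as triplicates, with 2354615 to 2588130 reads on genes. The labels do not say whether these triplicates came from separate animals or cultures, so their spread may be technical.

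The level of Dmp1 does not check the labels, since the knock-in alters 1 codon and the tables hold no bases. Dmp1 had 3 to 6 reads in the S89G-DMP1 NSC libraries and 16 to 21 in the WT NSC libraries (log2 fold change -1.90, edgeR adjusted p = 0.00013), against 119 and 2 reads in the S89G-DMP1 and WT astrocyte libraries. The NSC libraries each held 747 to 890 reads of the stem cell factor Sox2. Astrocyte markers differed between the astrocyte libraries, and several were scarce in WT, against its label. The WT library held 8 reads of Aqp4 (the water channel of astrocyte endfeet) and 90 of Gfap (the astrocyte filament protein), where the S89G-DMP1 library held 4051 and 901. Slc1a3, Aldh1l1, Aldoc and Slc1a2 were also scarce in WT, with 8, 47, 53 and 51 reads against 3877, 1792, 1838 and 621. Of 9 astrocyte markers compared, 6 were at least 2-fold higher in S89G-DMP1 and 1 lower, beside 17.3% and 12.8% of all genes. Not scarce in WT were Glul (glutamine synthetase), with 4247 reads against 3709 in S89G-DMP1, and Gja1 (connexin 43), with 1165 against 1913. The 2 astrocyte libraries also differed in sex-linked genes, with 12172 reads of Xist and 0 of Ddx3y in the library labelled WT and 74 and 1277 in the library labelled S89G-DMP1. Genotype therefore cannot be told apart from animal, sex or cell composition in the astrocyte pair, and WT and S89G-DMP1 astrocyte library below mean only the libraries labelled so. In every NSC library both genes were present, with at least 2718 reads of Xist and 45 of Ddx3y.

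As background, FLT1 and KDR bind vascular endothelial growth factors, with KDR carrying most of the growth signal and FLT1, with its soluble form, holding the ligand back. TIE2 binds angiopoietins and TIE1 is its partner without a well-defined ligand of its own. Endoglin is a co-receptor that brings BMP9 and TGF-beta to the receptor ALK1, and it is also found on mesenchymal and mural cells. VE-cadherin, PECAM-1 and claudin-5 hold endothelial cells to each other, claudin-5 being the main tight junction protein of the blood-brain barrier. CD93 is a C-type lectin-like receptor of endothelial and myeloid cells, and HEG1 is a mucin-like protein that anchors the KRIT1 complex at endothelial junctions. The comparison asks whether the astrocyte and NSC cultures of the 2 genotypes differed in these genes.

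Promoter sequence was matched in RefSeq for 7 of the 10 genes (GRCm38.p6), all except Cdh5, Pecam1 and Cd93. The bases just before the annotated start of Eng, Flt1 and Heg1 are shown because the results below turn on these genes: Eng was among the most different in astrocytes, and Flt1 and Heg1 were tested in NSCs and moved in opposite directions. Each is written 5′ to 3′ on the strand of its gene, and capitals mark AGGAAG or CGGAAG or their reverse complements, the core letters bound by ETS factors, which act on many endothelial promoters.
Eng, chr2:32646345-32646594, plus strand: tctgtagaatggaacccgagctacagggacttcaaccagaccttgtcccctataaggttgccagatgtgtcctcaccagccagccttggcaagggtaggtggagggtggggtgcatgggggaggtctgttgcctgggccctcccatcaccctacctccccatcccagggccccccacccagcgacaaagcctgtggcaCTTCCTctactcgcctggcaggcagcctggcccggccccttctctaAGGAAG
Flt1, chr5:147726012-147726261, minus strand: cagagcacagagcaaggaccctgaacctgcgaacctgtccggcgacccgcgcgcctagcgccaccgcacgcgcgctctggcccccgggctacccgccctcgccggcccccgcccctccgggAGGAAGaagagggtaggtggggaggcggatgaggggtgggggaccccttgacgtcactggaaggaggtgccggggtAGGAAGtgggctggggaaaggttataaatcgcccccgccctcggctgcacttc
Heg1, chr16:33684216-33684369, plus strand: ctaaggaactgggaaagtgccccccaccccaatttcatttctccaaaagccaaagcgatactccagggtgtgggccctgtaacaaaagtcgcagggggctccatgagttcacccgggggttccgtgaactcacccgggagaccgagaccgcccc
The Eng and Flt1 stretches held 2 matches each and the Heg1 stretch 0. Over the 300-base windows of the RefSeq table, 4 of the 7 genes held a match (Eng 2, Flt1 2, Tie1 3 and Heg1 1), where 46.5% of 32851 promoters held one. The GATA letters AGATAA were in 1 of the 7 windows (Tek) and in 11.2% of all, the KLF letters CACCC in 7 of 7 and 57.5% of all, and the GC-box letters GGGCGG in 4 of 7 and 35.7% of all, each counted on both strands. A match is a description of letters and not a site of binding.

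Endothelial genes in NSCs were led by Cd93 and Heg1. These 2 genes together gave 97.6% to 98.7% of the reads of the 10 genes in WT libraries and 92.6% to 95.3% in S89G-DMP1 libraries. Cdh5 and Cldn5 had 0 reads in all 6 libraries, which allows up to 3 reads or 1.28 CPM (the read count scaled to library depth) in the shallowest library. Cd93 and Heg1 fell in S89G-DMP1 NSCs and Flt1 rose, while the remaining 7 genes had too few reads for the test. Of the 3 tested genes, 2 were called lower and 1 higher by edgeR's quasi-likelihood test at an adjusted p of 0.05, where 8.76% of the 11194 genes tested were called lower and 7.08% higher.

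Cd93 had 445, 417 and 455 reads in the WT NSC libraries and 300, 263 and 275 in the S89G-DMP1 libraries. Every S89G-DMP1 library lay below every WT library, with 116 ± 8.69 against 177 ± 13.4 CPM (mean ± SD, n = 3 each). Its log2 fold change was -0.60 (SE 0.07, edgeR adjusted p = 1.83e-09). Cd93 lies on the minus strand of mouse chromosome 2 at 148436640-148443563 (GRCm38) and shares no exon with another annotated gene.

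Heg1, on chromosome 16 at 33684370-33771576, had 165, 206 and 157 reads in WT NSCs and 98, 84 and 80 in S89G-DMP1 NSCs. The groups again did not overlap, at 70.8 ± 8.73 CPM for WT against 36.4 ± 4.61 for S89G-DMP1 (mean ± SD, n = 3 each). Heg1 therefore fell by 0.96 on the log2 scale (SE 0.11, edgeR adjusted p = 9.21e-10). Heg1 shares 318 exon bases with the antisense gene Gm15657, which had 0 reads in every library.

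Flt1, on chromosome 5 at 147561604-147726011, moved the other way on far fewer reads. It had 2, 6 and 4 reads in WT NSCs and 16, 12 and 13 in S89G-DMP1 NSCs. The lowest S89G-DMP1 library held 2 times the reads of the highest WT library, and the means were 5.70 ± 0.904 and 1.59 ± 0.744 CPM (SD, n = 3 each). The log2 fold change of 1.79 (SE 0.43, edgeR adjusted p = 0.00136) was not called by DESeq2 (adjusted p = 0.0701), and Flt1 was not tested when 10 reads were required in every library. In all 3 genes the groups did not overlap, which held for 30.7% of the genes tested, and the smallest p of an exact permutation test of 3 against 3 libraries is 0.1.

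Eng was too low for the test in NSCs, with 3, 4 and 3 reads in WT libraries and 7, 4 and 7 in S89G-DMP1 libraries. Relative to depth the S89G-DMP1 libraries were all above the WT libraries (2.49 ± 0.677 against 1.34 ± 0.189 CPM, mean ± SD, n = 3 each, two-sided exact permutation p = 0.1), by a margin of under 1 read at the closest pair. In the deposited TPM the genotypes overlapped, WT replicate 2 being the highest of the 6 libraries at 3.30. Eng, at 32646595-32682669 on chromosome 2, shares 61 exon bases with Fpgs on the other strand, which had 47 to 60 reads in WT NSCs and 68 to 86 in S89G-DMP1 NSCs. Whether the counting used strand is not given in the sources used here, so reads in the shared bases cannot be assigned to either gene.

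The other receptors and junction genes were near or at 0 in NSCs. Kdr had 2, 3 and 1 reads in WT libraries and 3, 1 and 4 in S89G-DMP1 libraries, with the groups overlapping. Tek had 0, 1 and 1 reads against 5, 0 and 1, so that 1 S89G-DMP1 library held most of its reads. Pecam1 had 1 read in 1 library of each genotype and Tie1 1 read in 1 WT library. At this depth no genotype difference was detectable in these 4 genes.

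**Figure D1:**
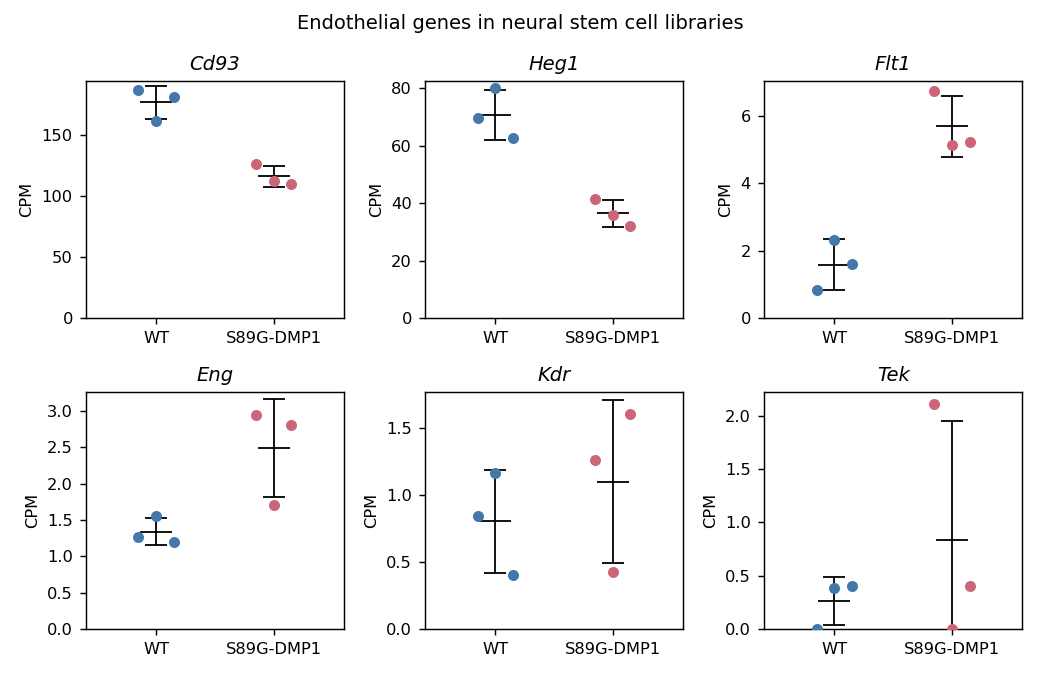
CPM of Cd93, Heg1, Flt1, Eng, Kdr and Tek in each of the 3 WT (blue) and 3 S89G-DMP1 (red) NSC libraries, with the mean as a horizontal bar and the SD as whiskers, and a separate y axis from 0 for each gene. The genotypes are apart for Cd93 and Heg1 (lower in S89G-DMP1) and for Flt1 and Eng (higher), and overlap for Kdr and Tek.

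Levels can be compared between genes only per length, here as CPM per kilobase of the gene length that the astrocyte FPKM values imply. In WT NSCs Cd93 (26.5) and Heg1 (21.5) led, and their libraries overlapped only at the edge, from 24.3 to 28.1 for Cd93 and from 19.0 to 24.3 for Heg1. With the GENCODE exon length Heg1 was at 5.56 and Cd93 still at 26.5, well apart. Eng (0.689) and Flt1 (0.532) followed and overlapped, then Kdr (0.183), Tek (0.0765), Pecam1 (0.0524) and Tie1 (0.0377), which rested on 6 reads or fewer in all WT libraries together. In S89G-DMP1 NSCs the order of the first 4 was Cd93 (17.4), Heg1 (11.1), Flt1 (1.91) and Eng (1.28), so that Flt1 stood above Eng. With the full exon length of the GENCODE annotation Eng stayed above Flt1 in both genotypes, since the implied Flt1 length of 2989 bases is far below its annotated 13504. Over the 10 genes the CPM sum lay between 248 and 260 in WT libraries and between 152 and 181 in S89G-DMP1 libraries.

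The deposited TPM values of the NSCs did not follow the counts for Cd93 (nor for Eng, as given above). Its TPM was 0 in S89G-DMP1 replicate 1, which had 300 reads, and 2.69 in WT replicate 1, which had 445 reads. In the other 4 libraries it was 39.5 and 45.1 in WT and 27.5 and 25.3 in S89G-DMP1. Heg1 and Flt1 kept the order of their counts between genotypes in TPM, with Heg1 at 23.5 to 31.9 in WT and at most 16.3 in S89G-DMP1. The comparison of counts was therefore used, and none of the 3 genes was called by limma on log2(TPM + 1), with adjusted p of 0.797 for Cd93, 0.107 for Heg1 and 0.0568 for Flt1.

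**Figure D2:**
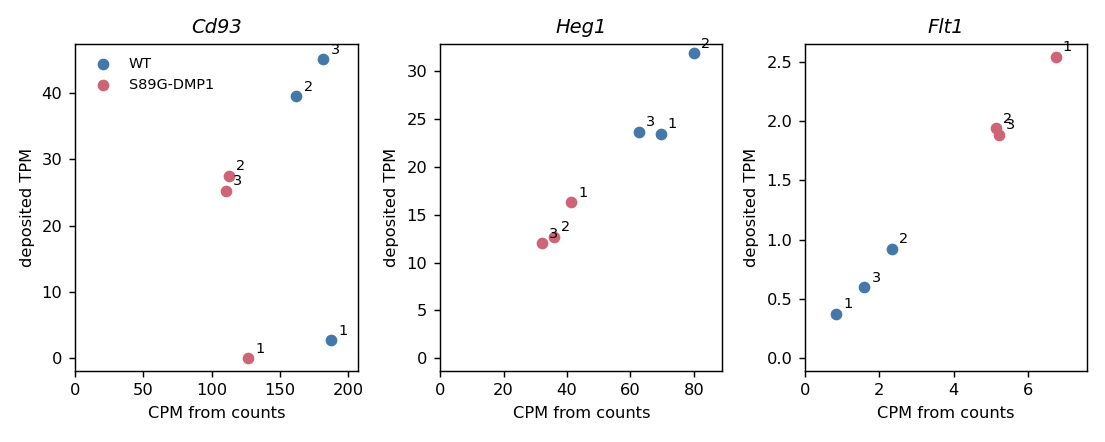
The authors' TPM value (y axis) against CPM from the deposited counts (x axis) for Cd93, Heg1 and Flt1 in each NSC library, WT in blue and S89G-DMP1 in red, with the replicate number beside each point. Cd93 sits at or near a TPM of 0 in replicate 1 of both genotypes although its CPM there is the highest of its group, while Heg1 and Flt1 rise along a line.

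In the astrocyte pair the largest differences among the 10 genes were in Eng and Cdh5, both far lower in the S89G-DMP1 library, followed by Cd93. Heg1, Pecam1 and Tek were lower by a little over 2-fold, and the 2 VEGF receptors Flt1 and Kdr were higher. Of the 8 genes with at least 10 reads in a library, 7 differed by 2-fold or more (30.1% of the 15680 genes compared did so). Of these 6 were lower in S89G-DMP1 (12.8% of all genes) and 1, Kdr, was higher (17.3% of all genes). The median log2 ratio of the 8 genes was -1.21, beside 0.01 for all genes. There is no test with 1 library per genotype, and the intervals below are exact binomial ones that cover counting error only.

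Eng had 11770 reads in WT astrocytes and 157 in S89G-DMP1 astrocytes, or 929 and 10.9 CPM. It was 85.2-fold higher in WT (95% interval 72.8 to 100.4, log2 ratio -6.39). In FPKM, the authors' reads scaled to gene length and depth, Eng was 433 and 6.21. The antisense neighbour Fpgs had 321 and 217 reads, far below the Eng reads of the WT library but above those of the S89G-DMP1 library.

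Cdh5, on chromosome 8 at 104101625-104144511, had 1917 reads in WT astrocytes against 23 in S89G-DMP1. It was 94.7-fold higher in WT (95% interval 63.0 to 150, log2 ratio -6.44) and stood at 34.3 and 0.443 FPKM. Cd93 had 551 and 49 reads, 12.8-fold higher in WT (interval 9.53 to 17.5, log2 ratio -3.62). Eng, Cdh5 and Cd93 were more than 8-fold lower in the S89G-DMP1 library, as were 2.44% of all genes compared. They were also the genes that stayed past 2-fold under every scaling tried. With log2(FPKM + 1) the log2 ratio was -4.61 for Cdh5 and -2.14 for Cd93, the latter short of 8-fold.

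Heg1 was the most counted of the 10 genes in both astrocyte libraries, with 11973 reads in WT and 5665 in S89G-DMP1. It was 2.40-fold higher in WT (interval 2.33 to 2.48, log2 ratio -1.26), or 259 against 132 FPKM. Scaled by library size only, its log2 ratio was -0.97, under 2-fold. Heg1 was thus lower in S89G-DMP1 in both cell types, and so was Cd93, with the 2 tables made by different tools and the cell types not tested against each other.

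Flt1 and Kdr were the 2 genes higher in the S89G-DMP1 astrocyte library. Flt1 had 790 reads there and 404 in WT, 1.72-fold higher (interval 1.52 to 1.94, log2 ratio 0.78), with 20.3 against 9.65 FPKM. Kdr, on chromosome 5 at 75932827-75978458, had 184 and 76 reads, 2.13-fold higher (interval 1.62 to 2.82, log2 ratio 1.07). Flt1 was also the gene that rose in S89G-DMP1 NSCs. On the scale of library size alone both receptors were past 2-fold higher. With log2(FPKM + 1) Flt1 was past 2-fold and Kdr was not (log2 ratio 0.92).

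The angiopoietin receptor and the remaining junction genes were scarce in astrocytes. Tek (chromosome 4, 94739289-94874976) had 32 reads in WT and 17 in S89G-DMP1, 2.14-fold higher in WT (interval 1.15 to 4.11). Pecam1 (chromosome 11, 106654217-106750628) had 16 and 7 reads, 2.60-fold higher in WT (interval 1.01 to 7.47). Tie1 (chromosome 4, 118471191-118490061) had 1 read in WT and 0 in S89G-DMP1, and Cldn5 (chromosome 16, 18776847-18778262) had 0 in both. A count of 0 allows up to 3 reads, which is 0.237 CPM for WT and 0.208 for S89G-DMP1. The VE-cadherin reads of the WT library therefore stood beside few or none of PECAM-1, TIE1 and claudin-5. These positions are GRCm38, and the build of the astrocyte table is not given in the sources used here.

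**Figure D3:**
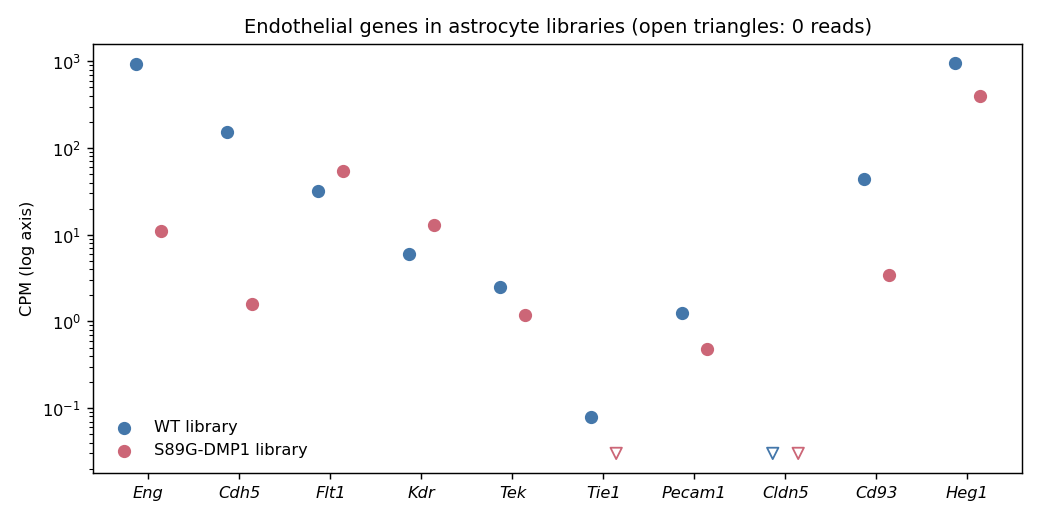
CPM on a log axis of the 10 endothelial genes in the WT (blue) and the S89G-DMP1 (red) astrocyte library, with open triangles at the bottom for genes with 0 reads. Eng stands at 929 CPM in WT and 10.9 in S89G-DMP1 and Cdh5 is lower by a similar factor, while Flt1 and Kdr are higher in S89G-DMP1, and there are no error bars because each genotype has 1 library.

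Per length, the WT astrocyte library was led by Eng (433 FPKM) and Heg1 (259), with Cdh5 (34.3), Flt1 (9.65), Cd93 (5.89), Kdr (1.24), Tek (0.665), Pecam1 (0.462) and Tie1 (0.0192) behind. In the S89G-DMP1 library Heg1 (132 FPKM) and Flt1 (20.3) led and Eng (6.21) was the third. The order of Flt1 and Cd93 in WT turned when the full GENCODE exon length was used. The 10 genes summed to 2111 CPM for WT and to 479 for S89G-DMP1, and Eng with Heg1 made up 88.8% and 84.5% of it.

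**Figure D4:**
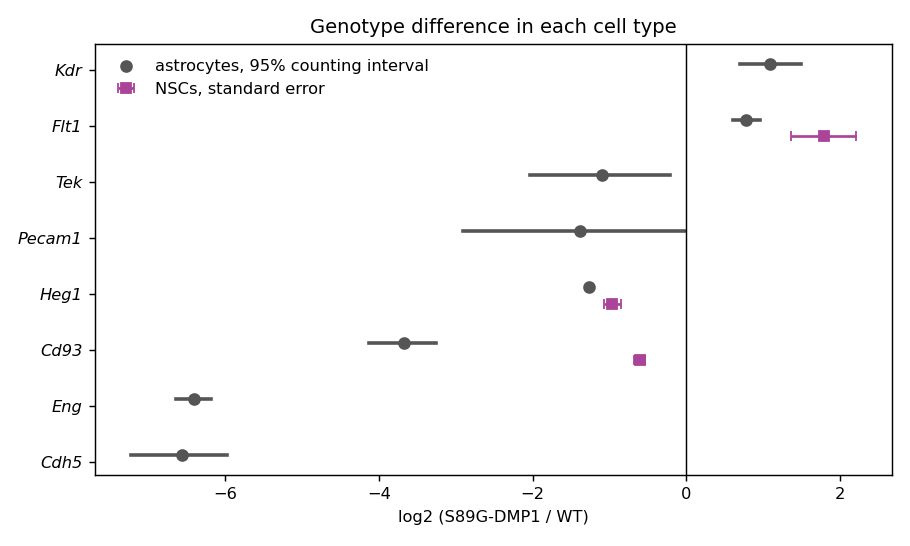
Log2 ratio of S89G-DMP1 to WT for the 8 genes compared in astrocytes (grey circles, ratio of CPM without a prior count, lines for the 95% counting interval) and the 3 tested in NSCs (purple squares, edgeR log2 fold change, whiskers for the standard error). Heg1 and Cd93 are below 0 and Flt1 is above 0 in both cell types, and Eng and Cdh5 lie below -6 in astrocytes.

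Other endothelial genes were split in direction. Of 30 such genes, 25 had under 10 reads in every NSC library and 6 had 0 throughout. Among the 5 tested in NSCs Plvap, a protein of endothelial diaphragms, was the only one called (log2 fold change -0.55, edgeR adjusted p = 0.00259), a call lost with DESeq2 (adjusted p = 0.104). Of all genes tested, 8.76% were called lower. In astrocytes 23 were compared, 10 of them lower in S89G-DMP1 and 13 higher, with a median log2 ratio of 0.25. By 2-fold or more 8 were lower and 5 higher, beside 12.8% and 17.3% of all genes compared. Thbd (thrombomodulin) was the largest, with 11526 reads in WT and 83 in S89G-DMP1 (-7.27), and its partner Procr (the protein C receptor) had 524 and 32 (-4.13). Abcb1a, a drug efflux pump of brain endothelium, was lower as well (-4.58), while Mfsd2a, a lipid carrier of brain endothelium, was higher with 467 reads against 10 (5.12). Further endothelial genes ranged widely in the astrocyte libraries: Fli1 had 348 reads in WT and 154 in S89G-DMP1, Adgrl4 86 and 8, Esam 80 and 15, Emcn 28 and 12, Vwf 16 and 22, Erg 2 and 19, and Sox17 0 in both. Slco1a4 had 95 reads in WT and 491 in S89G-DMP1, Tal1 21 and 79, Ecscr 19 and 64, and Rasip1 105 and 58. The sum of the 30 genes, 1079 CPM in WT and 172 in S89G-DMP1, was mostly Thbd in WT (910 CPM) but not in S89G-DMP1 (5.76 CPM).

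Ligands and partners of the VEGF receptors were read in each cell type separately, and the cell types were not tested against each other. Of 10 genes matched, 6 were tested in NSCs and 2 were called higher, beside 7.08% of all genes tested. The 2 were the co-receptor Nrp2 (log2 fold change 0.57, edgeR adjusted p = 0.000335) and the ligand Vegfa (0.32, adjusted p = 0.0328). The Vegfa call was lost in DESeq2 and when any of 4 libraries was left out. In astrocytes 9 of the 10 had a ratio below 0, as did 7756 of all 15680 genes, with the signaling genes Plcg1 and Shb at -0.06 and -0.03 within counting error of 0. Of all genes compared, 12.8% were lower and 17.3% higher by 2-fold or more. In this list 4 were lower by that much and none higher. Those were Flt4, the lymphatic VEGF receptor (292 reads in WT and 13 in S89G-DMP1, log2 ratio -4.46), Vegfa (3352 and 936, -2.02), Vegfc (238 and 66 reads, 4.10-fold lower) and Pgf (145 and 45, -1.82). The list median was -0.97 in astrocytes and 0.10 in NSCs.

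Among 6 genes of the angiopoietin system, Svep1, a matrix protein that binds TIE1, rose in NSCs (log2 fold change 0.62, edgeR adjusted p = 0.000979, but 0.0533 with DESeq2), and Angpt2, the context-dependent TIE2 ligand, did not pass (0.18, adjusted p = 0.0731). In astrocytes Angpt2 went from 2287 reads in WT to 222 in S89G-DMP1 (log2 ratio -3.54) and Svep1 from 5571 to 1386 (-2.19). Ptprb, the phosphatase that acts on TIE2, had 311 and 25 reads (-3.71), while the agonist Angpt1 was higher in S89G-DMP1, with 71 and 463 reads (2.49). Angpt4 was higher too, with 24 and 69 reads (1.27), and Dok2 was at 0.28. By 2-fold or more 3 of the 6 genes were lower and 2 higher, beside 12.8% and 17.3% of all genes compared. With 3 lower and 3 higher in all, the median of -0.95 in astrocytes lies in the gap between the 2 sides.

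Of 18 genes of endoglin and BMP9 signaling, 11 were tested in NSCs. Over all genes tested, 8.76% were called lower and 7.08% higher. The inhibitor-of-differentiation genes Id2 and Id3 were the ones called, in opposite directions (log2 fold change -0.58 with adjusted p = 1.52e-05 and 0.48 with adjusted p = 0.00122, both by edgeR). DESeq2 kept the Id2 call and not that of Id3 (adjusted p = 0.0545). Acvrl1, which encodes the receptor ALK1, had 0 reads in every NSC library and 1836 in the WT against 76 in the S89G-DMP1 astrocyte library (log2 ratio -4.74). The inhibitory factors Smad7 and Smad6 were lower in S89G-DMP1 astrocytes as well (-2.14 and -1.67), and Id2 was higher (1.30). Of the 16 genes compared in astrocytes 3 were lower and 2 higher by 2-fold or more, with a median of 0.01. These counts stood near the share over all genes compared, 12.8% lower and 17.3% higher.

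Of 18 partners of VE-cadherin, claudins and HEG1, 15 were tested in NSCs and 2 were called lower, beside 8.76% of all genes. These were the junction protein Jam2 (log2 fold change -0.26, edgeR adjusted p = 0.00065) and the small GTPase Rap1b (-0.25, adjusted p = 0.016), the latter lost with DESeq2 (adjusted p = 0.201) and when any of 3 libraries was left out. In astrocytes Klf4, a transcription factor downstream of the KRIT1 complex, was lower (1686 reads in WT and 570 in S89G-DMP1, log2 ratio -1.75). The tight junction gene Ocln was higher (1 and 56 reads), and the median of the 18 genes was 0.12.

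Markers of other cell types also differed between the astrocyte libraries, in both directions. Of all genes compared, 12.8% were at least 2-fold lower in S89G-DMP1 and 17.3% at least 2-fold higher. Of 11 fibroblast and meningeal markers compared, 9 were at least 2-fold lower in S89G-DMP1 and none 2-fold higher, and their sum was 5944 CPM for WT against 2291, with Foxd1 (2878 and 26 reads) and Pdgfra (1755 and 100) among them. Of 10 mural cell markers 3 were lower and 1 higher by 2-fold: Rgs5 had 2431 reads in WT and 39 in S89G-DMP1, Pdgfrb 11765 and 2276 and Myh11 402 and 37, while Acta2 had 9152 and 35539, and the list summed to 3371 and 4070 CPM. Markers of microglia and blood cells summed to 736 CPM in WT and 1096 in S89G-DMP1, with 2 of 10 at least 2-fold higher and none lower. Sums of astrocyte (453 and 1301), progenitor (845 and 2337) and neuron markers (98.4 and 302) were higher in S89G-DMP1 too. At least 2-fold higher were 6 of 9 astrocyte, 8 of 10 progenitor and 3 of 5 neuron markers compared, and 1, 0 and 1 were lower. In these bulk libraries fewer cells of a type and less RNA per cell cannot be told apart, and the part that these cell types had in the endothelial genes was not tested.

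In NSCs microglia and blood markers summed to 4.39 to 6.74 CPM in WT and 2.53 to 5.99 in S89G-DMP1, with 8 of 10 at 0 in all libraries and none called. Fibroblast markers summed to 19.0 to 29.6 and 18.4 to 21.9 CPM, with 6 of 12 at 0. Pdgfra, which oligodendrocyte precursors also make, was called lower there (log2 fold change -0.84, edgeR adjusted p = 0.00402), a call lost with DESeq2 (adjusted p = 0.128). Mural markers summed to between 213 and 232 CPM in WT and between 145 and 187 in S89G-DMP1, mostly from Cspg4, another gene of oligodendrocyte precursors, which was called lower (-0.56, adjusted p = 1.15e-08). Among astrocyte, progenitor and neuron markers 3 of 7, 3 of 10 and 0 of 5 tested were called higher and 0, 0 and 1 lower. Of all genes tested, 7.08% were called higher and 8.76% lower. Whether these had a part in the fall of Cd93 and Heg1 was not tested.

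**Figure D5:**
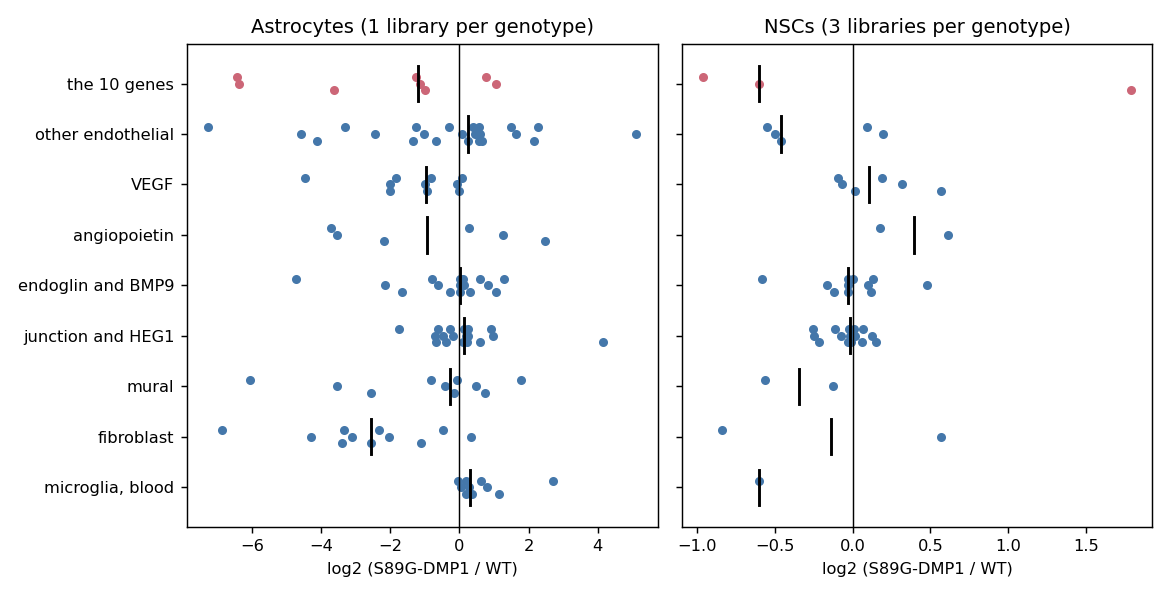
Log2 ratio of S89G-DMP1 to WT for each gene (point) of 9 lists in astrocytes (left) and NSCs (right), with the list median as a black bar and different x axes in the panels. In astrocytes the 8 compared of the 10 endothelial genes (red) and the fibroblast markers lie mostly below 0 while other endothelial genes spread to both sides, and in NSCs few genes of most lists could be tested.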

How the data were processed

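RNA of 8 cultures was compared: 1 WT and 1 S89G-DMP1 astrocyte library, and 3 WT and 3 S89G-DMP1 NSC libraries, grouped by their labels. The astrocyte table as deposited holds read counts for each gene beside FPKM values, made after alignment with TopHat2 2.0.9 and Bowtie2 2.0.6 (counting program and build not given in the sources used here). The deposited NSC table holds counts beside TPM values, with HISAT2, StringTie, featureCounts and GRCm38 named in the submitters' processing notes. The tables were made with different tools, so the cell types were not tested against each other.

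NSC counts were compared in R 4.3.3 with edgeR 4.0.16 (filterByExpr, TMM factors, quasi-likelihood test, genotype as the only term, Benjamini-Hochberg adjusted p of 0.05). Astrocyte values are log2 ratios of CPM after TMM scaling (prior count 2) where 1 of the libraries reached 10 counts, called at 2-fold, with 95% exact binomial intervals. Reads are not independent molecules, so intervals and floors (3 counts) cover counting error only. Alternatives were DESeq2 1.42.0, limma 3.58.1 on log2(TPM + 1) and log2(TPM + 0.1), other scalings and filters, the replicate number as a block, each NSC library left out, FPKM values, a prior count of 0.5, at least 50 counts, and 4-fold. The edgeR steps were first run on simulated data with known changes. Libraries of one genotype differed by more than counting noise on average, and none was counted as a duplicate.

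The 10 genes and the lists were chosen with earlier results of these data known. Besides the 10 genes and Dmp1, list genes were eligible for naming if called in NSCs or at least 2-fold apart in astrocytes with at least 100 counts in one library. At most the 4 largest per list and cell type were eligible, together with the most counted marker genes. Not all eligible genes are named in the text. Gfap, Slc1a2, Fpgs, Gm15657, Ocln, Plcg1, Shb, Angpt4, Dok2, Fli1, Adgrl4, Esam, Vwf, Emcn, Erg, Sox17, Slco1a4, Tal1, Ecscr and Rasip1 were named in addition, after their values were seen. Protein sequences were not used here.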

Additional observations from a re-analysis of the deposited data

Results flagged for a closer look

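For 8 genes all 3 S89G-DMP1 NSC libraries lay on one side of the WT libraries and the ratio of the single astrocyte pair had the other sign, and the difference between cell types was not tested for any of them. Among the endothelial genes this was Eng, with an astrocyte log2 ratio of -6.39 and higher CPM in every S89G-DMP1 NSC library, on 3 to 7 reads. Dmp1 had an astrocyte log2 ratio of 4.78 and an NSC log2 fold change of -1.90. The astrocyte log2 ratio was -2.02 for Vegfa, -2.19 for Svep1 and -3.54 for Angpt2, against NSC log2 fold changes of 0.32, 0.62 and 0.18. On both TPM scales the NSC values of Vegfa and Angpt2 turned negative, the sign of their astrocyte ratios. The astrocyte log2 ratio was 0.56 for Plvap, 1.30 for Id2 and 0.92 for Jam2, against -0.55, -0.58 and -0.26 in NSCs. The Plvap ratio rests on 38 and 22 reads, with a counting interval of 0.876-fold to 2.70-fold that includes no difference, Angpt2 did not pass in NSCs (edgeR adjusted p = 0.0731) and Eng was not tested there. The astrocyte side of each rests on 1 library per genotype.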

How the results depend on the processing

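The NSC calls of Cd93 and Heg1 held under every count-based alternative, with the log2 fold change over the libraries left out in turn at -0.67 to -0.56 for Cd93, -1.06 to -0.86 for Heg1 and 1.51 to 2.16 for Flt1. With DESeq2, and with at least 10 counts in every library, 0 of the 10 genes were called higher (Flt1 was lost). With limma on log2(TPM + 1) or log2(TPM + 0.1), 0 were called in either direction (2 at an unadjusted p under 0.05), where edgeR called 3 and DESeq2 2. Over all genes DESeq2 called 735 (422 lower, 313 higher), limma 145 (107 lower, 38 higher) and 116 (85 lower, 31 higher), against 1773 in edgeR. On the TPM scales Vegfa and Angpt2 turned negative, Vegfa to -0.062 with a pseudocount of 1 and -0.064 with 0.1, and Angpt2 to -0.13 with each. The cause was not tested. In astrocytes 3 genes (Eng, Cdh5 and Cd93) stayed at least 2-fold lower with library size alone, log2(FPKM + 1), log2(FPKM + 0.1) and at 4-fold, in place of 6. With library size alone and log2(FPKM + 0.1) 2 were higher (Flt1 and Kdr), and at 4-fold 0. In either direction 4 passed with log2(FPKM + 1), where Flt1 came in and Kdr was lost, and 3 passed at 4-fold. Over all genes 1020 were lower with log2(FPKM + 1), and at 4-fold 813 were lower, 1354 higher and 2167 either. Library size alone moved the median of all genes from 0.01 to 0.30 on the log2 scale.

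Same-numbered NSC libraries did not deviate together (r of 0.029, -0.009 and -0.016), so the numbers were not taken to pair samples. With the number as a replicate block edgeR called 1845 genes and the same 3 of the 10. DESeq2 also lost the calls of Plvap, Svep1, Id3, Pdgfra, Vegfa and Rap1b. The NSC depth, with a floor of up to 1.28 CPM, limits the 7 untested genes.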
